A study of Mus musculus with 6 samples.

Results

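The genes described here are 10 named members of the cell's machinery for sensing force: the ion channel genes Piezo1, Piezo2 and Trpv4, the co-activator genes Yap1 and Wwtr1 (which encodes TAZ), the secreted YAP targets Ccn1 and Ccn2, and the stretch-responsive genes Ankrd1, Ankrd2 and Csrp3. They were taken as a list of names, and no measured value entered the rule. All 10 were found by gene symbol among the 20672 genes listed in any of 3 count tables, all 10 stood among the 16964 genes listed in every table, and all 10 passed the low-count filter that left 15856 genes for testing.

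Piezo channels open when the cell membrane is stretched and let calcium in, and TRPV4 is a calcium-permeable channel that responds to osmotic swelling among other stimuli. Inside the cell the Hippo kinases LATS1 and LATS2 phosphorylate YAP and TAZ and keep them out of the nucleus, while spreading on a stiff matrix favours their entry, where they bind TEAD proteins on DNA and switch on genes such as Ccn1, Ccn2 and Ankrd1. Striated muscle adds its own set: ANKRD1 and ANKRD2 bind titin in the sarcomere, and CSRP3, the muscle LIM protein, sits at the Z-disc, with Ankrd2 and Csrp3 known to favour slow fibres.

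RNA-seq was available for 6 mouse libraries, 2 for each of 3 tissues of the hind limb. The tissues are the infrapatellar fat pad, an adipose cushion beneath the kneecap lined by synovium, the Achilles tendon, and the rectus femoris, a muscle of the front of the thigh. The titles of both fat pad libraries carry the word Letrozol, for the aromatase inhibitor letrozole, and the tendon and muscle titles do not. Drug and tissue therefore cannot be told apart, and no library of one tissue served as an untreated control for another of that tissue. The titles also hold a code that a tissue's libraries share and that differs between the tissues. Its meaning is not stated, and whatever it marks cannot be told apart from tissue either. The series concerns female mice, and the labels give no strain, age, dose or duration. The word combined stands in the fat pad and tendon titles without a stated meaning, and nothing in the labels tells whether a tissue's 2 libraries are separate animals. The p-values therefore measure the spread between libraries, which may be technical.

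The total counts per library were 83132413 and 106319037 for the fat pad, 59042675 and 62063826 for the tendon, and 56216295 and 58544836 for the rectus femoris. The source label reads fat pad in every case, and the groups were taken from the label that separates the tissues. Summed markers followed that label. The 6 adipocyte markers reached 70719 and 77093 CPM (counts scaled to library size, with TMM factors) in the fat pad, 3260 (library 1) and 716 (library 2) in the tendon, and 431 and 999 in the muscle. The 6 tenocyte markers summed to 544 and 336 CPM in the fat pad, 17292 and 17956 in the tendon and 2082 and 1412 in the muscle, and the 6 fast-fibre markers to 73.0 and 67.2, 7329 and 38351, and 174646 and 161825 CPM in the same order of tissues. The tendon libraries thus held muscle transcripts, and differed in them. No marker of these 3 lists was at 0 in any library.

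Promoter sequence was available from RefSeq (build GRCm38.p6) for 8 of the 10 genes. None was found for Piezo2 and Ccn2, so these genes were not searched. The 250 bases before the start site were searched for the TEAD core motif GGAATG on both strands (CATTCC on the reverse), the letters that YAP and TAZ partners bind, and 4 of the 8 genes held it. The motif stood in 12.6% of all 32851 such windows and in at least 1 window of 14.4% of 27025 genes. The CArG box, bound by SRF, stood in 1.47% of windows, and CAGCTG, a single form of the E-box CANNTG (N for any base), in 13.0%. Neither was found in a window of the 8 genes. Other forms of the E-box were not searched for, and the windows below hold some, such as CACGTG in Yap1. Those with the TEAD motif were both co-activator genes and the target genes Ccn1 and Ankrd1, and they are shown here because the results below turn on them. The window of Ankrd2, the close relative of Ankrd1, is shown beside them as one in which these letters are not found. Capitals mark the motif. All windows run 5′ to 3′ towards the start site.
Yap1, chr9:8004597-8004846, minus strand: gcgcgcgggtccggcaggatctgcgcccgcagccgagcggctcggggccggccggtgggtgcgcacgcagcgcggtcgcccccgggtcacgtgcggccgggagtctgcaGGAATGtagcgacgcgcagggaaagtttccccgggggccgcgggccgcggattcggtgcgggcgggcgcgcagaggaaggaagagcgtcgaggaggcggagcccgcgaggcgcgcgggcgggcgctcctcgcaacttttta
Wwtr1, first of 2 annotated starts, chr3:57575911-57576160, minus strand: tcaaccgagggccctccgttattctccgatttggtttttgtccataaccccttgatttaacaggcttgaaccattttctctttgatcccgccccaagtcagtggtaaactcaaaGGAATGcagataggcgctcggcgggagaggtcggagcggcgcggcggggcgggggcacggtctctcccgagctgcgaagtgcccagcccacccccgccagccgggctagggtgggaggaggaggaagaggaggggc
Ccn1, chr3:145649986-145650235, minus strand: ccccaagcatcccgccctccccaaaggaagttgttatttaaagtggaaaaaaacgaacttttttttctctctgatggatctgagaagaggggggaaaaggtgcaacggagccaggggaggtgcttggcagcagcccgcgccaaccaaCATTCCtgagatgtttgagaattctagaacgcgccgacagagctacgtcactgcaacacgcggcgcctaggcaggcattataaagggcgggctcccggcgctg
Ankrd1, chr19:36119845-36120094, minus strand: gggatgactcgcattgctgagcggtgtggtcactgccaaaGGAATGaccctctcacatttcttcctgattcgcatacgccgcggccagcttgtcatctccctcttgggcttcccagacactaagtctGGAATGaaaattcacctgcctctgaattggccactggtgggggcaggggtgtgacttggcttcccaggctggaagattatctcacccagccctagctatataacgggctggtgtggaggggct
Ankrd2, chr19:42035777-42036026, plus strand: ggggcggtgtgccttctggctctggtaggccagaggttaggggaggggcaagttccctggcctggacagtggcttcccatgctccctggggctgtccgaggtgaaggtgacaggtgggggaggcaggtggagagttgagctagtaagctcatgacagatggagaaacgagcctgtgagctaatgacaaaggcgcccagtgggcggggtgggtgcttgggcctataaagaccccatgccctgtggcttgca
The first base of the motif lay 141 bases before the start in Yap1, 136 in Wwtr1 (170 before its other start), 103 in Ccn1, and 210 and 123 in Ankrd1, which alone of the 8 genes held it more than once. A match is a description of the letters and was not tested as a binding site.

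The tissues were ordered by these genes in a common way. Both tendon libraries were above the other 4 libraries for 8 of the 10 genes, whereas 18.1% of all tested genes had their highest libraries in the tendon. The exceptions were Trpv4, for which both fat pad libraries were above the rest in TMM-scaled CPM (33.9% of all tested genes), and Ccn2, whose fat pad and tendon libraries overlapped. Between the fat pad and the rectus femoris, 9 of the 10 passed an adjusted p of 0.05 (quasi-likelihood test of edgeR, Benjamini-Hochberg adjusted over all genes), with Trpv4 and Ccn2 higher and 7 lower. In that comparison 59.4% of all genes passed, 29.8% higher and 29.6% lower. Between the fat pad and the tendon, 8 of the 10 passed and all 8 were lower, set against 58.5% of all genes (27.2% higher, 31.4% lower). Between the tendon and the rectus femoris, both tendon libraries exceeded both muscle libraries for all 10 genes, as they did for 36.4% of all genes. There, 5 of the 10 passed, all higher, against 26.0% of all genes (13.3% higher, 12.7% lower). No gene of the 10 passed in that comparison once either muscle library was left out, when 43 genes (without muscle library 1) and 19 genes (without muscle library 2) of the whole table still passed.

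**Figure D1:**
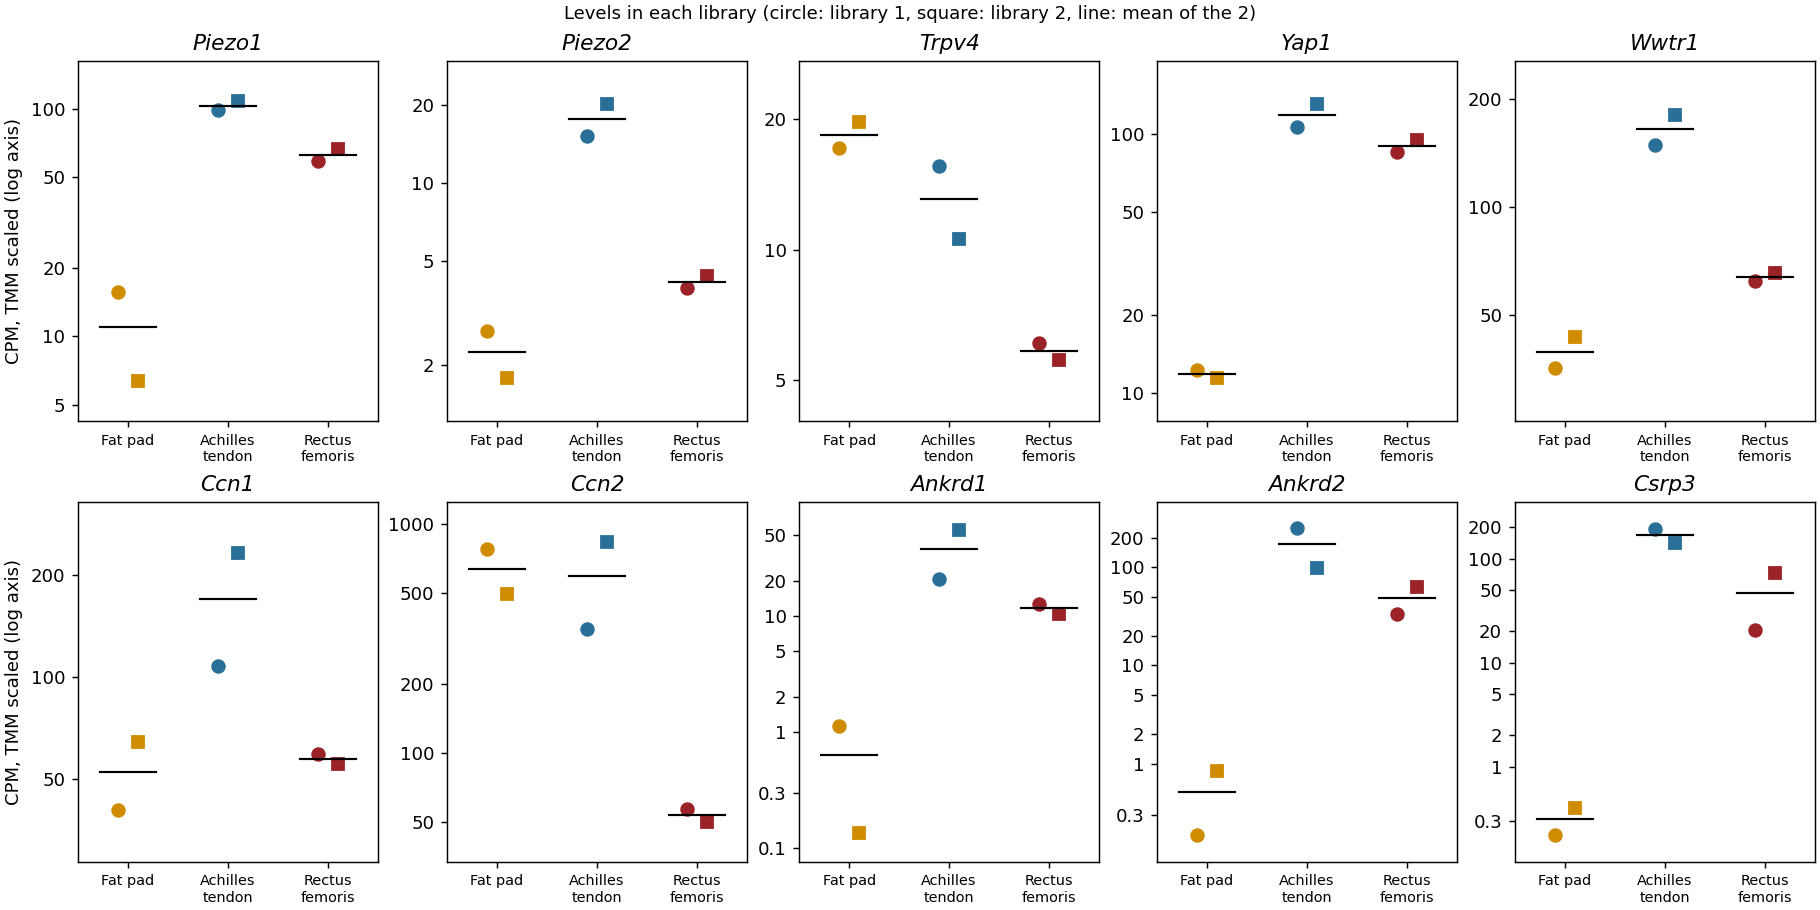
Level of each gene in each library, in CPM scaled by TMM on a log axis, for the fat pad, the Achilles tendon and the rectus femoris. The fat pad libraries lie at or under 1.13 CPM for Ankrd1, Ankrd2 and Csrp3, and at 778 and 498 CPM for Ccn2.

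Piezo1 was low in the fat pad and high in the tendon. It had 15.7 and 6.35 CPM in fat pad libraries 1 and 2, 98.7 and 108 CPM in the tendon and 58.9 and 66.7 CPM in the rectus femoris. Both fat pad libraries were below the other 4, and the tendon libraries were above those of the muscle. The log2 fold change by edgeR was −2.51 ± 0.40 (SE) for the fat pad over the rectus femoris (adjusted p = 0.00175) and −3.23 ± 0.42 for the fat pad over the tendon (adjusted p = 0.000662). The tendon over the muscle gave 0.72 ± 0.38 (adjusted p = 0.201 by edgeR). It passed there with total counts (1.44, adjusted p = 0.0289), with only those 2 tissues fitted (0.78, adjusted p = 0.0287), without fat pad library 1 (0.69, adjusted p = 0.0417) or 2 (0.73, adjusted p = 0.0375), and with limma on log2(TPM + 1) among genes with a mean of at least 1 TPM (0.91, adjusted p = 0.0477). Endothelial cells are a known site of Piezo1. The 6 endothelial markers summed to 306 and 206 CPM in the fat pad, 806 and 690 in the tendon and 376 and 472 in the muscle. In the fat pad 4 were lower over the muscle and 5 over the tendon (29.6% and 31.4% of all tested genes). Emcn was higher in both (1.89 and 0.78), beside 29.8% and 27.2% of all tested genes. The part of these cells in the result was not tested. In bulk tissue fewer cells of a type and less RNA per cell cannot be told apart. In the mouse annotation of GENCODE release M21, 24.6% of the exonic bases of Piezo1 overlap the antisense gene Ctu2, and no source used here states whether the counting used strand.

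Piezo2, the channel of touch and of stretch-sensing nerve endings, was expressed at lower levels with the same order of tissues. Its values were 2.70 and 1.78 CPM in the fat pad, 15.2 and 20.1 CPM in the tendon and 3.94 and 4.38 CPM in the muscle. The 3 tissues did not overlap, and the tendon stood well apart. The fat pad was lower than the tendon (log2 fold change −2.98 ± 0.33, SE; adjusted p = 0.00036 by edgeR), and the tendon was higher than the muscle by 2.08 ± 0.32 (adjusted p = 0.00978). The fat pad over the muscle gave −0.90 ± 0.32 (adjusted p = 0.044 by edgeR), a call lost with total-count scaling (−0.38, adjusted p = 0.322) and without fat pad library 2 (−0.63, adjusted p = 0.144), without either tendon library (adjusted p = 0.0573 and 0.0598) and without either muscle library (adjusted p = 0.107 and 0.161). It was also lost with only those 2 tissues fitted (adjusted p = 0.0996), with a term for the library number (adjusted p = 0.0712) and with limma on log2(TPM + 1) (−0.26, adjusted p = 0.249) and log2(TPM + 0.1) (−0.95, adjusted p = 0.14). Schwann cell markers, which accompany nerve, summed to 709 and 866 CPM in the fat pad, 1606 and 228 CPM in the tendon and 217 and 271 CPM in the muscle. Between the tendon libraries the markers were higher in library 1 and Piezo2 in library 2, and the part of these cells in the result was not tested.

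Trpv4 was not low in the fat pad as the Piezo genes were, though it too was higher in the tendon than in the muscle. It had 17.2 and 19.7 CPM in the fat pad, 15.6 and 10.6 CPM in the tendon and 6.10 and 5.57 CPM in the muscle. The muscle libraries were the lowest, and tendon library 1 lay close under the fat pad. The order of fat pad and tendon depended on the scaling. With total counts, tendon library 1 (20.6 CPM) lay between fat pad libraries 1 and 2 (18.7 and 20.8 CPM). Relative to the rectus femoris, Trpv4 rose in the fat pad by 1.66 ± 0.27 (log2, SE; adjusted p = 0.00172 by edgeR) and in the tendon by 1.17 ± 0.26 (adjusted p = 0.0232), the second lost without tendon library 1 (0.85, adjusted p = 0.0987). The fat pad over the tendon gave 0.49 ± 0.26 (adjusted p = 0.143 by edgeR), which passed without tendon library 1 (0.85, adjusted p = 0.0475) and turned to −0.63 on log2(TPM + 1) of the deposited TPM columns. On those columns the rise over the muscle also fell short (0.66, adjusted p = 0.0811 by limma).

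The order of the channels within a tissue differed between the tissues. On a per-length scale (TPM computed from the counts with the fat pad's count-to-TPM ratio as the relative length), the fat pad held more Trpv4, 3.62 and 4.29, than Piezo1, 1.95 and 0.813. The tendon held more Piezo1, 26.8 and 24.9, than Trpv4, 7.22 and 4.14, and so did the muscle, with Piezo1 at 7.32 and 9.50 and Trpv4 at 1.29 and 1.35. Both libraries of every tissue showed the same order. Piezo1 exceeded Piezo2 in all 6 libraries, by 11.0 and 6.73 times in the fat pad, 12.2 and 10.2 times in the tendon and 28.2 and 28.7 times in the muscle.

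Yap1 separated the fat pad from both other tissues more sharply than any other gene of the set when measured against its SE. It had 12.3 and 11.5 CPM in the fat pad, 107 and 131 CPM in the tendon and 85.9 and 95.0 CPM in the rectus femoris. The fat pad libraries were almost equal and far below the rest. The log2 fold change by edgeR was −2.93 ± 0.20 over the muscle (SE; adjusted p = 6.04e-05) and −3.32 ± 0.20 over the tendon (adjusted p = 6.43e-05), and neither call was lost under any alternative run. The tendon over the muscle gave 0.39 ± 0.18 (adjusted p = 0.152 by edgeR), against 1.11 with total counts (adjusted p = 0.00484) and 0.63 with limma on log2(TPM + 1) (adjusted p = 0.0482), both of which passed. Without tendon library 2 it was 0.25 (adjusted p = 0.416).

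Wwtr1 fell less than Yap1 in the fat pad. It had 35.5 and 43.2 CPM in the fat pad, 149 and 181 CPM in the tendon and 62.1 and 65.4 CPM in the muscle. No 2 tissues overlapped. The fat pad was lower than the tendon (log2 fold change −2.06 ± 0.20, SE; adjusted p = 0.000232 by edgeR), and the tendon was higher than the muscle by 1.37 ± 0.20 (adjusted p = 0.00892). Against the muscle the fat pad gave −0.69 ± 0.20 (adjusted p = 0.0208 by edgeR). That call was lost with total-count scaling (−0.18, adjusted p = 0.414), without fat pad library 1 (−0.52, adjusted p = 0.126), without muscle library 1 (adjusted p = 0.0836) and without muscle library 2 (adjusted p = 0.114).

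The balance of the pair therefore shifted towards TAZ in the fat pad. Per length, Wwtr1 exceeded Yap1 by 6.41 and 8.39 times in the fat pad, 3.09 and 3.07 times in the tendon and 1.61 and 1.53 times in the muscle. These ratios are taken within a library, so scaling between libraries does not enter them, and the 3 tissues did not overlap.

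**Figure D2:**
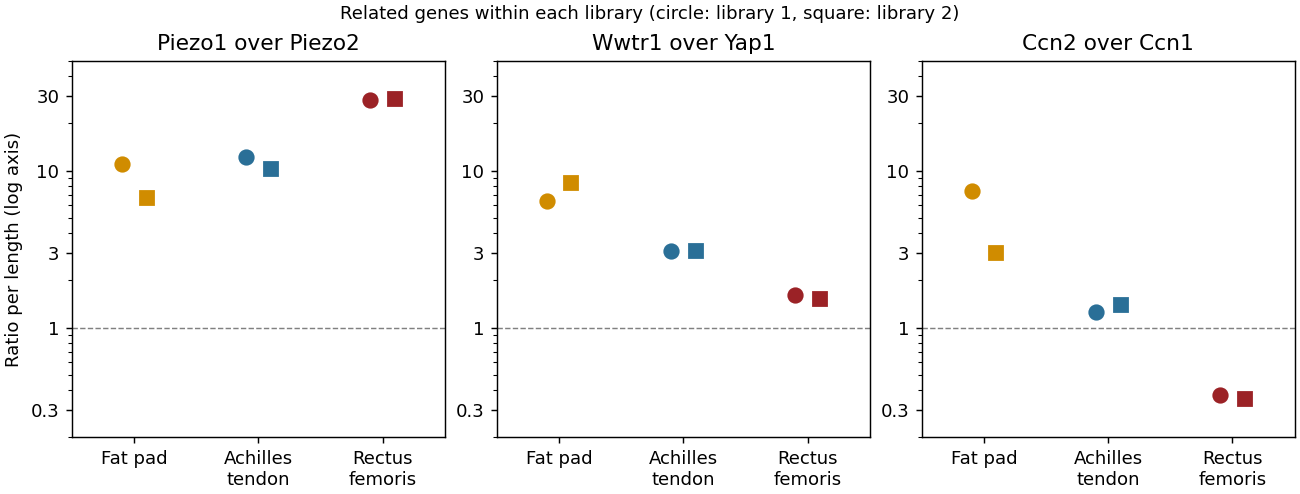
Ratio of related genes within each library, per length, on a log axis with a dashed line at equality. Wwtr1 over Yap1 is highest in the fat pad (6.41 and 8.39), and Ccn2 over Ccn1 lies above 1 in the fat pad and tendon and at 0.372 and 0.351 in the rectus femoris.

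Ccn2 and Ccn1 encode secreted matricellular proteins and are the usual readouts of YAP and TAZ, but they did not share an order of tissues. Ccn2 (also called Ctgf) had 778 and 498 CPM in the fat pad, 348 and 840.4 CPM in the tendon and 57.0 and 50.3 CPM in the rectus femoris. The fat pad libraries lay between the 2 tendon libraries, and the muscle was far below. Ccn2 rose over the muscle by 3.57 ± 0.49 in the fat pad (log2, SE; adjusted p = 0.000798 by edgeR) and by 3.47 ± 0.48 in the tendon (adjusted p = 0.00789). The fat pad over the tendon gave 0.10 ± 0.44 (adjusted p = 0.855 by edgeR), and its sign turned with total counts (−0.072), on the TPM columns (−0.061) and without fat pad library 1 (−0.20) or tendon library 1 (−0.35). In the same annotation 23.2% of the exonic bases of Ccn2 overlap the antisense gene Gm15270.

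Ccn1 (also called Cyr61) had 40.3 and 64.0 CPM in the fat pad, 108 and 233 CPM in the tendon and 59.1 and 55.3 CPM in the muscle. The fat pad overlapped the muscle, and both were below the tendon. The fat pad over the muscle gave −0.13 ± 0.39 (log2, SE; adjusted p = 0.784 by edgeR), with the sign turned by total counts (0.38) and without fat pad library 1 (0.20), and a fall called on log2(TPM + 1) of the TPM columns (−1.19, adjusted p = 0.00697 by limma). Against the tendon Ccn1 fell in the fat pad, at −1.71 ± 0.40 (adjusted p = 0.00894 by edgeR), lost without fat pad library 1 (−1.35, adjusted p = 0.0722) and at −1.05 without tendon library 2 (adjusted p = 0.0189). The tendon was above the muscle by 1.57 ± 0.40 (adjusted p = 0.031 by edgeR), lost without tendon library 2 (0.92, adjusted p = 0.0549).

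Measured within a library and per length, Ccn2 exceeded Ccn1 by 7.46 and 3.00 times in the fat pad and by 1.25 and 1.39 times in the tendon, while in the muscle it was the smaller, at 0.372 and 0.351 times. The fat pad was the tissue with the least Yap1, while its Ccn2 was far above the muscle's and its Ccn1 overlapped the muscle's. The wider CCN family had 5 of its 6 genes tested, and all 5 rose in the tendon over the muscle. Their median log2 fold change was 1.79 against 0.10 for all tested genes, of which 13.3% were called higher. Beyond the 2 members, Ccn3 gave 1.79 (adjusted p = 0.0155 by edgeR), Ccn4 gave 2.28 (adjusted p = 0.0356) and Ccn5 gave 1.09 (adjusted p = 0.0242). The call of Ccn4 was lost without either fat pad library (adjusted p = 0.0576 and 0.0587) or tendon library 2 (adjusted p = 0.12), and that of Ccn5 without tendon library 1 (adjusted p = 0.0722). Without tendon library 2, 3 of the 5 passed, and without either muscle library none did. In the fat pad over the muscle Ccn2 and Ccn5 passed, both higher.

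**Figure D3:**
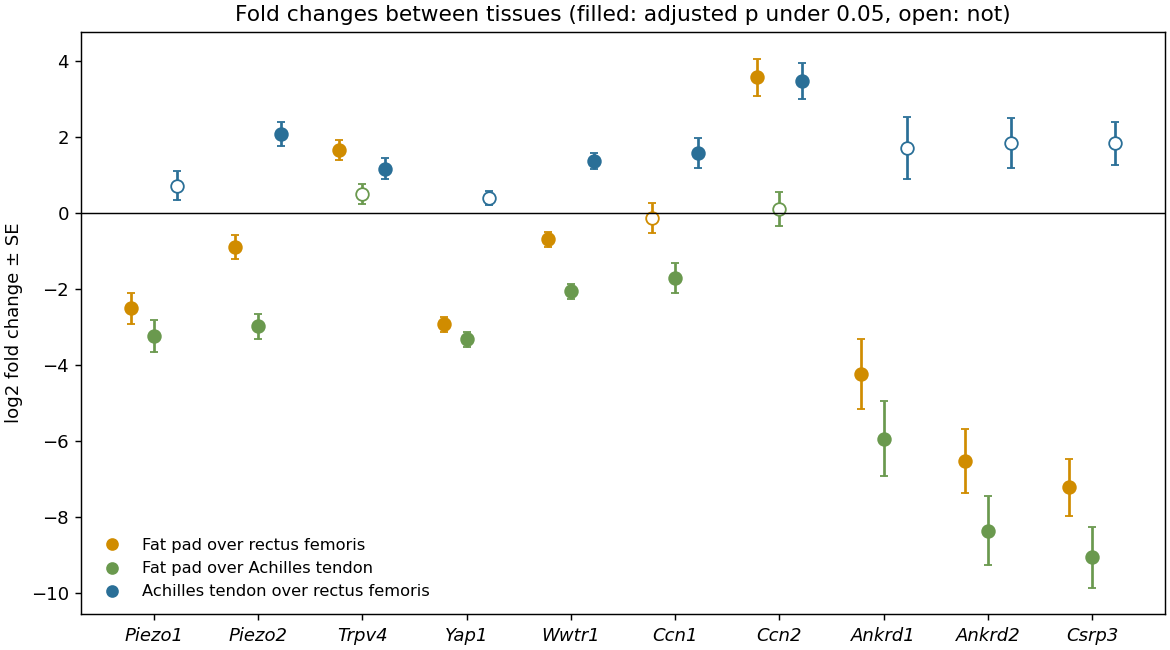
Log2 fold change with its SE for each gene in the 3 comparisons, filled where the adjusted p was under 0.05. Trpv4 and Ccn2 lie above 0 in the fat pad over the rectus femoris, and Ankrd2 and Csrp3 reach −8.36 and −9.06 in the fat pad over the tendon.

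Ankrd1, Ankrd2 and Csrp3 were at or under 1.13 CPM in the fat pad. Ankrd1 (cardiac ankyrin repeat protein) had 1.13 and 0.133 CPM there, from 102 and 15 counts, against 20.8 and 55.4 CPM in the tendon and 12.9 and 10.5 CPM in the rectus femoris. Ankrd2 had 0.188 and 0.845 CPM in the fat pad (17 and 95 counts), 249 and 97.3 CPM in the tendon and 33.2 and 63.5 CPM in the muscle. Csrp3 had 0.221 and 0.400 CPM in the fat pad (20 and 45 counts), 194 and 143 CPM in the tendon and 20.5 and 73.6 CPM in the muscle. All 3 had higher values in both tendon libraries than in either muscle library. All 3 met the low-count filter in the tendon and the muscle, whatever their fat pad counts.

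All 3 fell in the fat pad against both other tissues. The log2 fold change over the muscle by edgeR was −4.23 ± 0.92 for Ankrd1 (SE; adjusted p = 0.00679; −6.40 without fat pad library 1), −6.52 ± 0.85 for Ankrd2 (adjusted p = 0.000653) and −7.22 ± 0.75 for Csrp3 (adjusted p = 0.000237). Over the tendon it was −5.94 ± 0.99 for Ankrd1 (adjusted p = 0.00205 by edgeR), −8.36 ± 0.91 for Ankrd2 (adjusted p = 0.000328) and −9.06 ± 0.80 for Csrp3 (adjusted p = 0.000159). Between the tendon and the muscle none of the 3 passed: Ankrd1 gave 1.71 ± 0.81 (adjusted p = 0.157 by edgeR), Ankrd2 1.84 ± 0.67 (adjusted p = 0.0835) and Csrp3 1.84 ± 0.57 (adjusted p = 0.0535). Without tendon library 2, Ankrd2 (2.37, adjusted p = 0.0266) and Csrp3 (2.05, adjusted p = 0.0469) passed, and with total-count scaling both passed as well (2.59 with adjusted p = 0.0286, and 2.55 with adjusted p = 0.0176). Ankrd2 was 0.99 without tendon library 1 (adjusted p = 0.328), and Ankrd1 was 0.84 without tendon library 2 (adjusted p = 0.494). Csrp3 was 1.20 without muscle library 1 (adjusted p = 0.146) and 3.05 without muscle library 2 (adjusted p = 0.0578), and it passed by DESeq2's Wald test (adjusted p = 0.00662) and without the low-count filter (adjusted p = 0.04998). On log2(TPM + 1) limma called all 3, at 1.53 for Ankrd1 (adjusted p = 0.0165), 4.86 for Ankrd2 (adjusted p = 0.00627) and 5.07 for Csrp3 (adjusted p = 0.00967).

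Slow-fibre markers had the same order of tissues as Ankrd2 and Csrp3, but not the same size of difference. In the tendon over the muscle their median log2 fold change was 7.46, against 1.84 for both Ankrd2 and Csrp3, which were not called. The 6 slow-fibre markers, Myh7, Myl2, Tnnc1, Tnnt1, Tnni1 and Myl3, summed to 2.96 and 3.37 CPM in the fat pad, 9647 and 4879 CPM in the tendon and 17.8 and 53.9 CPM in the rectus femoris, and none was at 0 in any library. In the tendon over the muscle all 6 were called higher and 3 of the 6 fast-fibre markers lower, counts that became 3 and 0 without either muscle library. In the counts of the tendon and the muscle, the library with the larger slow-fibre sum also had the more Csrp3 and Ankrd2. This was library 1 in the tendon and library 2 in the muscle, while Ankrd1 had its higher value in the other library. The deposited TPM columns reversed the muscle pair, with Csrp3 at 55.3 and 2.90 TPM and Ankrd2 at 119 and 13.1 TPM in libraries 1 and 2. In the fat pad the sums were close, and the larger one of library 2 rested on Myl3 (0.166 CPM in library 1 and 1.49 CPM in library 2), while Myl2, Tnnc1 and Tnni1 were higher in library 1. The part of slow fibres in these differences was not tested.

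The relatives of these genes followed them in part. The list of ankyrin repeat and muscle LIM proteins holds 6 genes, the 3 members among them, and its median log2 fold change was −5.37 in the fat pad over the muscle (0.14 for all tested genes) with 4 lower and none higher, and −6.42 over the tendon (−0.01 for all) with 5 lower and none higher. Of all tested genes, 29.6% were lower over the muscle and 31.4% over the tendon. Besides the members, the lower genes were Ankrd23 in both comparisons and Csrp1 over the tendon (−0.93, adjusted p = 0.0175 by edgeR). Csrp2 gave −0.44 over the tendon (adjusted p = 0.252 by edgeR). Over the muscle, Csrp1 gave 0.53 and Csrp2 0.64, and neither passed (adjusted p = 0.11 and 0.115 by edgeR). Ankrd23, the third muscle ankyrin repeat gene, had 15.2 and 7.95 CPM in the fat pad, 969 and 1806 CPM in the tendon and 6206 and 5246 CPM in the muscle. It was highest in the muscle, and it fell in the tendon relative to the muscle, at −2.05 (adjusted p = 0.0251 by edgeR). Csrp1 and Csrp2, the LIM genes of smooth muscle and fibroblasts, were higher in the tendon than in the muscle by 1.45 (adjusted p = 0.0129 by edgeR) and 1.08 (adjusted p = 0.0453). These 3 calls were lost without either muscle library, and those of Ankrd23 (adjusted p = 0.0548) and Csrp2 (adjusted p = 0.176) also without tendon library 1.

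The regulators upstream of YAP and TAZ were mostly lower in the fat pad. Of 21 Hippo kinases and scaffolds, in the fat pad over the muscle 14 were lower and 3 higher, with a median log2 fold change of −1.14 (0.14 over all tested genes, of which 29.6% were lower and 29.8% higher). Against the tendon 18 were lower and 2 higher, with a median of −1.86 (−0.01 over all), and 1 was higher without fat pad library 1 or tendon library 2. Of all tested genes, 31.4% were lower and 27.2% higher against the tendon. Lats1, a kinase that inhibits YAP, had 6.73 and 8.31 CPM in the fat pad, 47.2 and 39.5 CPM in the tendon and 36.1 and 37.5 CPM in the muscle. Nf2, which encodes the upstream scaffold merlin, had 26.2 and 22.0 CPM in the fat pad, 105 and 138 CPM in the tendon and 133 and 133 CPM in the muscle. Both were low in both fat pad libraries, and their log2 fold changes over the muscle were −2.29 for Lats1 (adjusted p = 0.000133 by edgeR) and −2.46 for Nf2 (adjusted p = 0.000134). Amot, whose product angiomotin holds YAP in the cytoplasm, gave −7.54 over the muscle (adjusted p = 5.38e-05 by edgeR), from 0.575 and 1.37 CPM in the fat pad against 161 and 205 CPM in the muscle. Genes of both the kinase core and the angiomotins thus fell along with Yap1 itself.

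A few kinases went the other way. Stk3, which encodes MST2, had 32.8 and 27.1 CPM in the fat pad, 11.8 and 11.5 CPM in the tendon and 6.86 and 8.06 CPM in the muscle. It rose in the fat pad by 2.01 over the muscle (log2; adjusted p = 0.000285 by edgeR) and by 1.36 over the tendon (adjusted p = 0.00149), and Taok3, a kinase that activates MST1 and MST2, rose by 1.38 (adjusted p = 0.00499) and 1.00 (adjusted p = 0.0182). The rise of Taok3 over the tendon was lost without fat pad library 1 (adjusted p = 0.0671), without tendon library 2 (adjusted p = 0.0832) and with total counts (adjusted p = 0.0692), and on log2(TPM + 1) its sign turned (−0.36), while Stk3 gave 0.20 over the tendon there (adjusted p = 0.518 by limma). Of the same 21 genes, 8 were higher and none lower in the tendon than in the muscle (median 0.40), a count of 16 with total-count scaling, of 5 with a term for the library number, of 2 without tendon library 1 and of 0 without either muscle library.

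The DNA-binding partners fell too. Of the TEAD genes and their competing cofactors of the VGLL family, 7 of 8 were tested. In the fat pad 6 of the 7 were lower against the muscle (median −2.33) and against the tendon (median −2.99). Of all tested genes, 29.6% were lower against the muscle (median 0.14) and 31.4% against the tendon (median −0.01). Tead1 had 19.8 and 19.4 CPM in the fat pad, 190.3 and 144 CPM in the tendon and 159 and 234 CPM in the muscle. All 4 TEAD genes fell in the fat pad, with Tead2 just passing over the muscle (−1.56, adjusted p = 0.0423 by edgeR) and not passing there with total counts or without fat pad library 2, tendon library 1 or either muscle library (adjusted p of 0.0512 to 0.189). The other TEAD genes included Tead1 at −3.32 over the muscle (adjusted p = 0.000108 by edgeR) and Tead3 at −3.70 (adjusted p = 0.000885). Vgll4, whose product represses TEAD, was the exception, at 50.2 and 90.3 CPM in the fat pad, 39.2 and 33.8 CPM in the tendon and 30.5 and 37.8 CPM in the muscle. It rose by 1.04 over the muscle (adjusted p = 0.02 by edgeR) and by 0.94 over the tendon (adjusted p = 0.0285), calls that were both lost without fat pad library 2 (0.55, adjusted p = 0.0905, and 0.45, adjusted p = 0.149). The first was also lost without either muscle library (adjusted p = 0.119 and 0.0569), and the second without tendon library 2 (adjusted p = 0.0996) and with total counts (adjusted p = 0.0804), and on log2(TPM + 1) neither passed (0.27 and 0.12). Between the tendon and the muscle none of the 7 passed by edgeR (smallest adjusted p = 0.181, for Vgll3) or by DESeq2, and 2 passed with total counts.

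**Figure D4:**
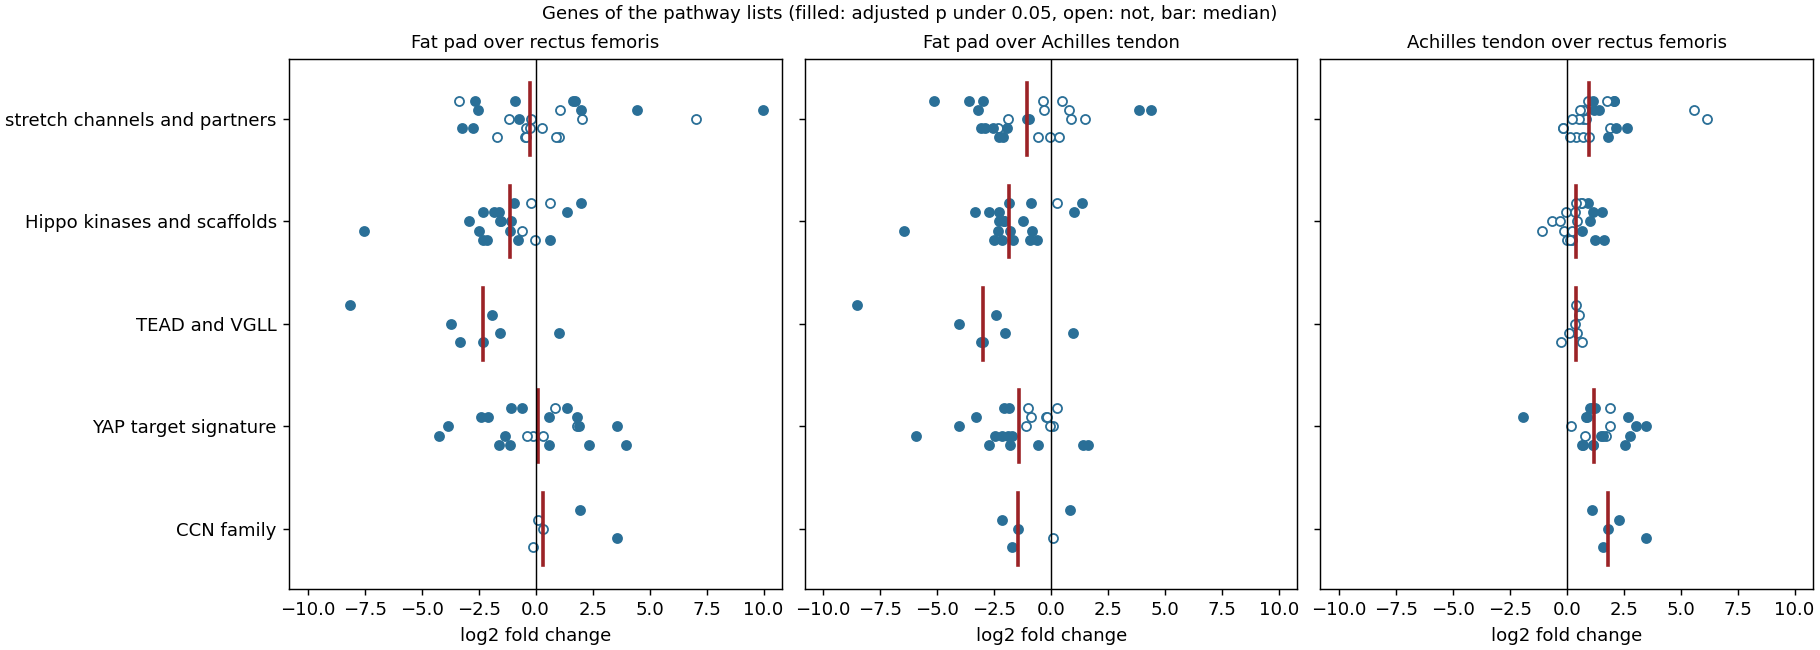
Log2 fold change of every tested gene of 5 pathway lists in the 3 comparisons, filled where the adjusted p was under 0.05, with a bar at the list's median. The TEAD and VGLL list has medians of −2.33 and −2.99 in the fat pad over the rectus femoris and over the tendon, and the YAP target signature a median of 1.20 in the tendon over the rectus femoris.

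A published YAP target signature of 22 genes, which contains Ccn1, Ccn2 and Ankrd1, was split in the fat pad. The signature shares Amotl2, Lats2 and Ptpn14 with the Hippo list above, and each of them was lower in both fat pad comparisons. Against the muscle, 8 of its genes were higher and 9 lower, with a median log2 fold change of 0.10 beside 0.14 for all tested genes, and the 8 became 5 without fat pad library 1 or either muscle library. Against the tendon, 2 were higher and 12 lower (median −1.41). The shares of all tested genes were 29.8% higher and 29.6% lower against the muscle, and 27.2% and 31.4% against the tendon. For the tendon over the muscle these shares were 13.3% and 12.7%. In the tendon over the muscle, 15 were higher and 1 lower (median 1.20 beside 0.10 for all), and without either muscle library the counts were 0 and 0 with medians of 1.29 and 1.24. Nuak2, a kinase gene, had 6.16 and 4.15 CPM in the fat pad, 8.28 and 10.7 CPM in the tendon and 1.71 and 1.21 CPM in the muscle, and Axl, a receptor tyrosine kinase gene, had 343 and 286, 265 and 255, and 115 and 125 CPM in the same order. Both were lowest in the muscle, and in the tendon over the muscle Nuak2 rose by 2.70 (adjusted p = 0.00871 by edgeR) and Axl by 1.12 (adjusted p = 0.0145). Gadd45a, a stress-response gene that is abundant in muscle here, was the single gene that fell, at −1.93 (adjusted p = 0.0302 by edgeR), a call lost with total counts (adjusted p = 0.0581) and without tendon library 1 (adjusted p = 0.057).

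Other stretch-gated channels and their partners, 25 tested genes of 27 with the 3 members among them, were also split. In the fat pad over the muscle 5 were higher and 6 lower, with a median of −0.25 that turned to 0.25 under total-count scaling, and over the tendon 2 were higher and 12 lower (median −1.05), with 4 higher without tendon library 1. Of all tested genes, 29.8% were higher and 29.6% lower over the muscle, and 27.2% and 31.4% over the tendon. Tmem63b, an osmosensitive channel gene, had 9.01 and 9.49 CPM in the fat pad, 76.0 and 78.0 CPM in the tendon and 87.2 and 85.1 CPM in the muscle. Tmem120a, proposed as a mechanosensor and known to act in adipocytes, had 289 and 257 CPM in the fat pad, 25.6 and 12.0 CPM in the tendon and 11.1 and 14.0 CPM in the muscle. The pair moved in opposite directions in the fat pad over the muscle, at −3.22 for Tmem63b (adjusted p = 4.14e-05 by edgeR) and 4.44 for Tmem120a (adjusted p = 0.000145). In the tendon over the muscle 8 of the 25 were higher and none lower (median 0.96), beside 13.3% and 12.7% of all tested genes. These 8 included the polycystin genes Pkd1 (1.82, adjusted p = 0.00908 by edgeR) and Pkd2 (2.18, adjusted p = 0.00466). The 8 calls became 16 with total counts, 5 without tendon library 1 and 0 without either muscle library.

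SRF and its co-activators of the MRTF family form the other force-linked route to Ankrd1 and Ccn1. Srf itself had 0.885 and 1.37 CPM in the fat pad, 49.5 and 69.0 CPM in the tendon and 107 and 99.9 CPM in the muscle. Both fat pad libraries were at a small share of the other 4, and the log2 fold change was −6.51 over the muscle (adjusted p = 3.95e-05 by edgeR) and −5.71 over the tendon (adjusted p = 5.57e-05). Of the 12 genes of the SRF and MRTF list, the fat pad over the muscle had 4 higher and 4 lower (median 0.45), and the fat pad over the tendon 1 higher and 6 lower (median −0.97). The shares of all tested genes were 29.8% higher and 29.6% lower over the muscle, and 27.2% and 31.4% over the tendon. The 4 higher became 2 without fat pad library 1 or muscle library 1, and the 1 higher became 3 without tendon library 1. The higher ones against the muscle were the actin-linked genes Cnn2, Myl9, Actg2 and Fhl2, and the lower ones were Srf, Mrtfa, Vcl and Tpm1. The 6 smooth muscle and pericyte markers summed to 957 and 754 CPM in the fat pad, 3313 and 3762 CPM in the tendon and 4224 and 3747 CPM in the muscle. Des, which skeletal muscle expresses as well, made up most of the tendon and muscle sums. Without it, a split chosen after the data had been seen, the other 5 summed to 924 and 729 CPM in the fat pad, 1609 and 1054 CPM in the tendon and 634 and 812 CPM in the muscle, so that fat pad and muscle overlapped. Their part in the result was not tested.

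Pattern over the 6 libraries was compared as the root mean square difference of centred log2 CPM, and the nearest of 15317 named genes were read off. Yap1 was closest to Ccdc9 (0.126), Ccnyl1 (0.128) and Lamc1 (0.134), a laminin chain gene. Wwtr1 was closest to Rai14 (0.0808), Hoxd9 (0.0968) and Evc (0.128). Piezo2 was closest to Tmem252 (0.174), Cacna1a (0.180) and Tgfb3 (0.185), and Trpv4 to Os9 (0.110) and Gsn (0.113). Ankrd2 and Csrp3 had each other among their 3 nearest genes (0.557), and Csrp3 also had Mb, the myoglobin gene (0.782). Ankrd1 was closest to Kera, a tendon and corneal proteoglycan gene (0.389). The nearest genes of Ccn2 were Chrna4, Pgr and Hamp2, all under 1 CPM and at 0 in both muscle libraries, so they rest on few counts. Among the members the smallest distances were 0.353 for Wwtr1 and Ccn1 and 0.379 for Piezo1 and Yap1.

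The authors' deposited tables set library 1 against library 2 within each tissue, and no label says what differs between them, so with 1 library on each side no test was made. Of the 30 pairs of counts, 8 differed by more than 2-fold. The background of genes past 2-fold was 14.3% in the fat pad, 14.2% in the tendon and 5.61% in the muscle. In the fat pad these were Piezo1 (log2 of library 1 over library 2 of 1.31, 95% exact binomial interval 1.18 to 1.44), Ankrd1 (2.85, 2.29 to 3.97) and Ankrd2 (−2.02, −3.01 to −1.41), intervals that cover counting error only. Neutrophil markers moved the same way as Piezo1, at 1739.6 CPM in fat pad library 1 and 233 CPM in library 2, and their part was not tested.

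In the tendon 4 genes passed 2-fold. Ccn1 (−1.11), Ccn2 (−1.27) and Ankrd1 (−1.41) were higher in library 2, and Ankrd2 (1.35) was higher in library 1. Yap1 and Wwtr1 differed little between the same libraries, at −0.29 and −0.28. Fast-fibre markers were higher in tendon library 2 (7329 CPM in library 1, 38351 CPM in library 2), and slow-fibre and adipocyte markers were higher in library 1. In the counts the 3 YAP targets of the set were thus all higher in library 2. The TPM columns gave smaller ratios, at −0.52 for Ccn1, −0.22 for Ccn2 and −0.079 for Ankrd1, none past 2-fold. The authors' deposited table gave −0.27, 0.021 and 0.16 for the same genes, with the sign turned for Ccn2 and Ankrd1.

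In the rectus femoris only Csrp3 passed 2-fold, at −1.84 (interval −1.95 to −1.73) from 837 and 3343 counts, and Ankrd2 followed at −0.93. The TPM columns deposited for the same libraries gave the opposite: Csrp3 at 55.3 and 2.90 TPM and Ankrd2 at 119 and 13.1 TPM in libraries 1 and 2. In the authors' deposited table the log2 fold change of Csrp3 was 4.02. Across 14914 genes the log2 library ratios of counts and TPM correlated with r = 0.962 in the fat pad, −0.171 in the tendon and −0.167 in the muscle, so the counts and the TPM columns of the tendon and muscle do not describe the same pair of libraries in the same way, and within-tissue differences of those 2 tissues are given as values only.

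**Figure D5:**
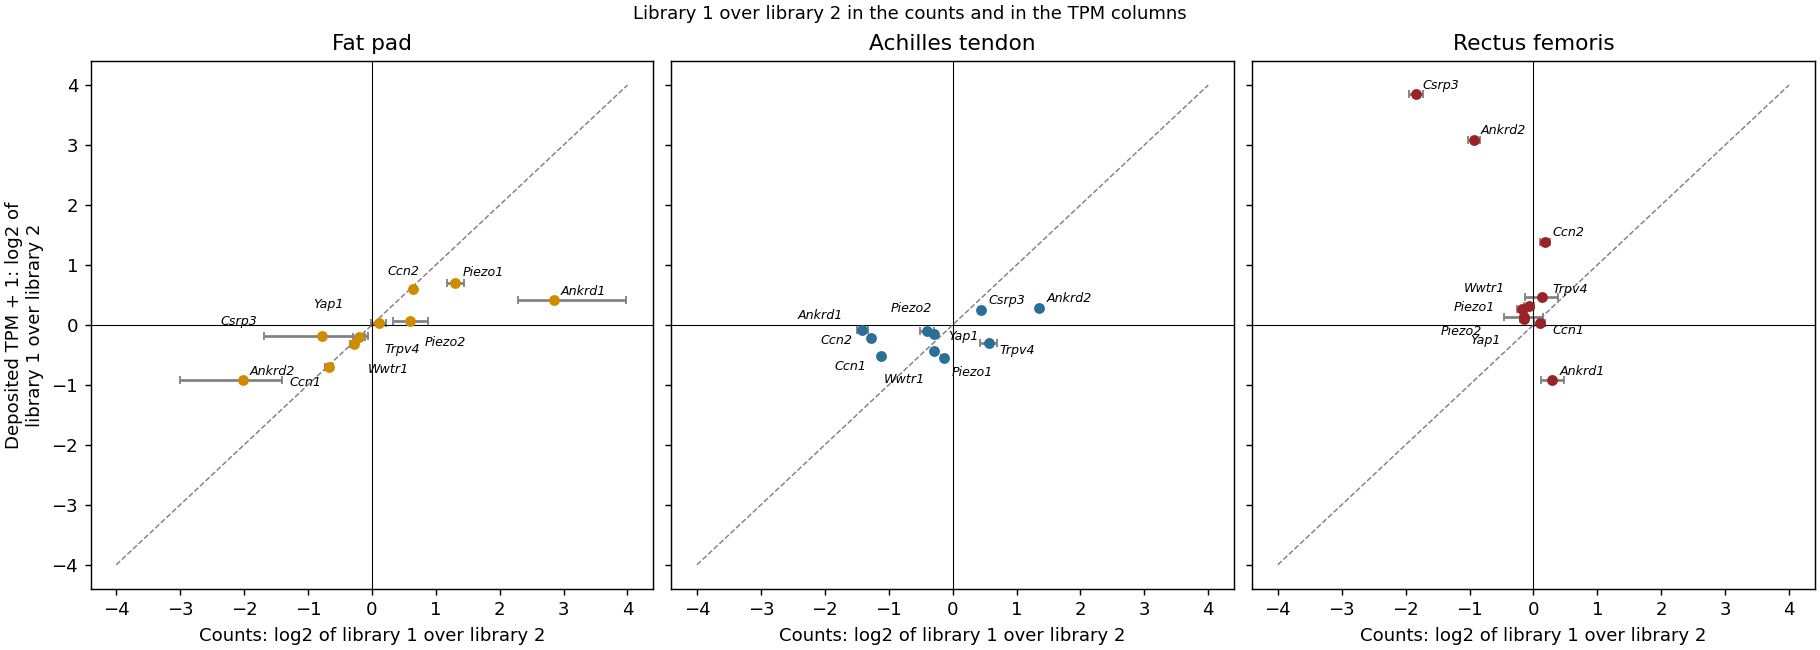
Log2 of library 1 over library 2 for each gene, from the counts with a 95% exact interval (x axis) and from the deposited TPM + 1 (y axis), by tissue, with a dashed line at equality. In the rectus femoris, Csrp3 lies at −1.84 in the counts and 3.85 in the TPM columns, and Ankrd2 at −0.93 and 3.09.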

How the data were processed

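RNA-seq of 6 libraries (2 per tissue) was taken as deposited. The authors deposited raw counts (whole numbers) by Ensembl gene in 1 table per tissue. A further table per tissue holds, per the file headers, TPM, a log2 fold change of library 1 over library 2, mean log2 CPM, a p-value with its −log10, and the adjusted p. Per the submitters' processing notes, Bowtie2, RSEM 1.3.1, DESeq2 1.4.5 and GRCm39 were used, with no step named for each. Strand setting and annotation release: not given in the sources used here. No per-sample column was left unused.

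Tables were joined by Ensembl identifier, and symbols came from the TPM tables. Counts of genes listed in all 3 tables were scaled by TMM, filtered by filterByExpr and fitted with edgeR 4.0.16 (R 4.3.3) in 1 quasi-likelihood model of all 6 libraries with a term per tissue. The 15856 genes tested gave a common biological coefficient of variation of 0.336, and Benjamini-Hochberg adjustment ran over all of them with a threshold of 0.05. SE was derived from the log2 fold change and the F statistic. CPM means are TMM-scaled. The script was tested on simulated counts. The library pair values use a prior count of 2, and their background covers genes reaching 20 counts in either library.

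Alternatives were total-count scaling, DESeq2 1.42.0 (size factors and Wald test), no filter, only the 2 tissues compared, a library-number block, limma 3.58.1 on log2(TPM + 1) or log2(TPM + 0.1), and each library left out. For the gene lists they were added after the data had been seen. Because TPM followed counts in the fat pad alone, counts were used throughout, and per-length levels were rebuilt from counts with lengths (count over TPM) from the fat pad, equal between its libraries within 1% for all 11537 genes checked. Nearest genes are the 3 with the smallest root mean square difference over the 6 libraries, predicted genes left out. The genes described and the lists were chosen with earlier results of these data known. Promoter windows are RefSeq's on GRCm38.p6, a different build from the one named for the reads, so they serve for sequence only.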

Additional observations from a re-analysis of the deposited data

How the results depend on the processing

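Total-count scaling moved the median log2 fold change of all genes by 0.51 (fat pad over rectus femoris), −0.22 (fat pad over tendon) and 0.73 (tendon over rectus femoris), and DESeq2's size factors moved the second by 0.11. The tendon over the rectus femoris depended most on the settings: of the 10 genes, 9 passed with total counts and 9 with limma on log2(TPM + 1), with or without a mean of at least 1 TPM, against 5, and 0 to 6 when each library was left out. Of all genes, 6366 passed with total counts (5968 higher, 398 lower) against 4127 (2110 higher, 2017 lower), and 19 to 4379 when each library was left out. In the other 2 comparisons the number of the 10 genes that passed stayed between 7 and 9 under every alternative run. The sign turned for Ccn1 in the fat pad over the rectus femoris with total counts (0.38) and without fat pad library 1 (0.20), with a range of −0.51 to 0.20 when each library was left out. It turned for Trpv4 in the fat pad over the tendon with limma on log2(TPM + 1) (−0.63, also with the mean filter) and log2(TPM + 0.1) (−0.74). For Ccn2 in that comparison it turned with total counts (−0.072), with the 3 TPM fits (−0.061) and without fat pad library 1 (−0.20) or tendon library 1 (−0.35), with a range of −0.35 to 0.86 when each library was left out. Library pairs past 2-fold numbered 3 on the TPM columns against 8 in the counts. In the fat pad, the log2 ratios of Ankrd1 (0.391 and 0.0478 TPM) and Piezo1 (1.95 and 0.812 TPM) became 0.41 and 0.70 with the pseudocount of 1. The 3 pairs on TPM were Ccn2 (1.39), Ankrd2 (3.09) and Csrp3 (3.85), all in the rectus femoris. Of these only Csrp3 was among the 8, and its sign turned from −1.84. The cause was not tested. Same-numbered libraries did not deviate together across genes (r of 0.0022, −0.0267 and −0.167). With 2 libraries per tissue this cannot exclude that the number pairs them. With the library number as a replicate block, 8 of the 10 genes passed in the fat pad over the rectus femoris (Piezo2 lost, −0.90, adjusted p = 0.0712 by edgeR). In the fat pad over the tendon 8 passed, and in the tendon over the rectus femoris 6 passed (Csrp3 gained, 2.11, adjusted p = 0.0453 by edgeR). Counting limits Ankrd1, Ankrd2 and Csrp3 in the fat pad, at 15 to 102 counts a library.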

Other observations

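Immediate early genes, which respond to stretch as well as to dissection and handling, gave no common direction. Among all tested genes, 29.8% were higher and 29.6% lower in the fat pad over the rectus femoris, and 27.2% and 31.4% in the fat pad over the tendon. In the tendon over the rectus femoris the shares were 13.3% and 12.7%. Of the 15 immediate early genes tested, the fat pad over the rectus femoris had 2 higher and 7 lower (median log2 fold change 0.09), and the fat pad over the tendon 2 higher and 6 lower (median −0.65). The tendon over the rectus femoris had 1 higher, a count of 7 with total-count scaling, of 3 without either fat pad library and of 0 without either muscle library. Klf4 was that gene, at 11.3 and 15.8 CPM in the fat pad, 123 and 123 CPM in the tendon and 39.5 and 52.5 CPM in the rectus femoris. Nr4a1, a nuclear receptor gene induced by exercise, had 4.40 and 11.1 CPM in the fat pad, 79.6 and 146 CPM in the tendon and 271 and 333 CPM in the rectus femoris. It fell in the fat pad, with log2 fold changes of −5.28 over the rectus femoris (adjusted p = 0.000265 by edgeR) and −3.86 over the tendon (adjusted p = 0.000828).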
